A study of Homo sapiens with 28 samples.

Results

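Ribosome biogenesis takes place mainly in the nucleolus, where RNA polymerase I transcribes the ribosomal DNA into a long precursor. Small nucleolar ribonucleoproteins (snoRNPs) modify this precursor, and a series of assembly factors folds and cuts it into the rRNAs of the small and the large subunit. Many of the genes are known targets of MYC, a transcription factor that drives growth and that pairs with MAX on the DNA motif called the E-box. The genes followed here are 45 protein-coding genes of this pathway, taken by symbol from a count table of 61815 human genes, with no ribosomal protein among them. By role they comprise 6 snoRNP genes, 4 genes of abundant or regulatory nucleolar proteins, 13 genes of small-subunit processing, 15 genes of large-subunit assembly, and 7 genes of RNA polymerase I and its initiation factors. All 45 passed the filter on low counts in both experiments.

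The RNA came from wild-type LNCaP, a human line of prostate cancer cells that responds to androgen, and every culture had first been held in medium with charcoal-stripped serum, from which most steroid hormone is removed. In the 24 h experiment, cells received DMSO vehicle (0.1%), Senexin B (1 μM), the synthetic androgen R1881 (0.1 nM), or Senexin B with R1881, with 3 libraries per group. The 72 h experiment had 4 libraries in each of 4 groups, namely DMSO vehicle, SNX631 at 500 nM, R1881 at the higher concentration of 1 nM, and both agents together. Doses were read from the sample labels, and the Senexin B dose differs from that in the study's text. Both compounds inhibit CDK8 and CDK19, paralogous kinases of the Mediator complex. Compound, dose, time and experiment differ together, so the effects of the inhibitors are set side by side without a test between them.

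Total counts ran from 9846595 to 33809419 in the 28 libraries, and the library with the next highest total held 15248512. The variation between replicates of a group was small, with a biological coefficient of variation of 2.72% at 24 h and 2.38% at 72 h. Levels are given as CPM, counts scaled to a common library total, and tests are from edgeR's quasi-likelihood test with Benjamini-Hochberg adjustment over all genes tested. A gene passed at a false discovery rate (FDR) under 0.01, and was called if its fold change was also over 1.5. Since CPM is relative to the whole library, more RNA of a gene per cell and a changed mix of cells cannot be told apart. The LNCaP markers FOLH1, HOXB13, KRT8 and KRT18 were above 283 CPM in every library, and the androgen-dependent marker KLK3 ran from 0.716 to 144 CPM. Of 10 markers of other cell types, 7 stayed under 1 CPM in every library. Among these, CD3E and KRT5 were at 0, and COL1A2 and DCN reached at most 0.182 and 0.0821 CPM. The others were COL1A1 (7.06 to 32.8 CPM), VWF (up to 4.45 CPM) and CD68 (up to 1.37 CPM). The sum over the 10 ranged from 10.3 to 34.6 CPM, most of it from COL1A1. That sum was lower with inhibitor (12.2 to 14.2 CPM against 25 to 27.9 CPM with vehicle at 24 h, and 20.6 to 23.3 against 31 to 34.6 CPM at 72 h), and it was lower with R1881 alone too (17.2 to 19.1 CPM at 24 h, 21.1 to 28.8 CPM at 72 h) and lowest with both (10.3 to 10.5 CPM and 13.6 to 15.5 CPM). Its part in the results below was not tested.

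Promoter sequence was examined because members of the pathway are known for E-boxes near their start sites. In the RefSeq promoter table (GRCh38.p14, 250 bases before to 50 after the start), 35 of the 45 genes had an entry at the gene's 5′ end. The motif CACGTG, which reads the same on both strands, was present in 13 of these 35 windows (37.1%), against 7.4% of 24882 windows of all genes and 8.95% of 13819 windows of protein-coding genes. It was found in 7 of 11 small-subunit promoters, 4 of 11 large-subunit promoters, 2 of 4 snoRNP promoters, 0 of 4 nucleolar promoters and 0 of 5 RNA polymerase I promoters. When every annotated start of a gene was allowed, 17 of 38 members (44.7%) held it, against 10.9% of 15842 protein-coding genes. The stretches below belong to small-subunit genes whose E-box lies upstream of the RefSeq start site, and they were chosen after the matches had been seen. They are written 5′ to 3′ on the plus strand, on which all 4 genes lie, with the E-box in capitals.
IMP4 (chr2:130342647-130342749): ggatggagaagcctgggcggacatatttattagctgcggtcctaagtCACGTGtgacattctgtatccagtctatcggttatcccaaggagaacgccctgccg
UTP4 (chr16:69132583-69132648): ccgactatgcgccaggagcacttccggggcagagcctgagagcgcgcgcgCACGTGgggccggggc
UTP20 (chr12:101280045-101280104): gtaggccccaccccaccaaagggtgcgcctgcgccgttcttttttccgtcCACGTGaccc
NAT10 (chr11:34105564-34105628): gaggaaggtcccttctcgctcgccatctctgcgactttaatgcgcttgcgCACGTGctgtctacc
The box of IMP4 in this stretch starts 203 bases before the start site, and IMP4 has another one 15 bases after it. The start used is that of RefSeq. In GENCODE 29 the spans of IMP4 and UTP4 begin upstream of their stretches and that of NAT10 begins within its stretch, before the box, so that these 3 boxes lie inside the GENCODE gene, while the span of UTP20 begins after its stretch. In UTP4, UTP20 and NAT10 the box starts 16, 10 and 15 bases before the start site.

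**Figure D1:**
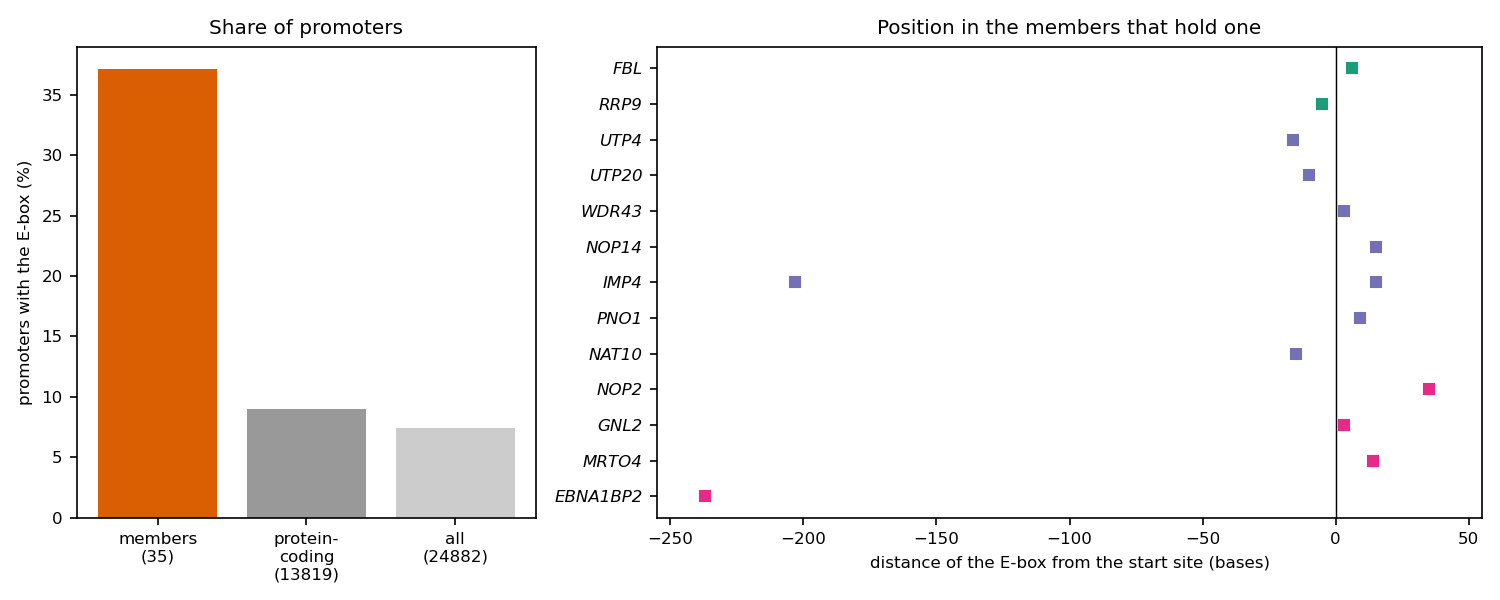
Left, share of promoter windows (%) that hold the E-box among members, protein-coding genes and all genes with a RefSeq entry (number of windows in parentheses). Right, distance in bases of each E-box from the start site for the 13 members that hold one, coloured by role; most lie within 40 bases of the start site, and those of IMP4 (203 bases before) and EBNA1BP2 (237 bases before) lie farther away.

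Under CDK8/19 inhibition the pathway rose as a broad, small shift. Senexin B alone raised 38 of the 45 genes and lowered 0, with a median rise of 22.7%, where 13.5% of all 15948 genes tested were higher and 11.7% lower. With R1881 present, Senexin B raised 30 and lowered 0 (median rise 14.9%, background 12.7% higher and 9.99% lower). SNX631 alone raised 38 and lowered 0 (median rise 16.9%, background 14.4% higher and 12.5% lower of 16074 genes), and with R1881 it raised 43 and lowered 0 (median rise 21.6%, background 17.8% and 15.4%). Among the 7459 genes at least as abundant as the least abundant member, PPAN, the shares higher were 21%, 20.6%, 21.6% and 27.3% in the same order. The median log2 fold change of the 45 genes was 0.29, 0.20, 0.23 and 0.28 on the log2 scale, while that of all genes tested lay between -0.01 and 0.01.

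Together, the 45 genes took 0.563 ± 0.0078% (SD) of all counts with vehicle at 24 h, 0.69 ± 0.0045% with Senexin B, 0.658 ± 0.001% with R1881 and 0.74 ± 0.0089% with both (n = 3). At 72 h they took 0.613 ± 0.0033% with vehicle, 0.73 ± 0.0063% with SNX631, 0.636 ± 0.0077% with R1881 and 0.765 ± 0.0067% with both (n = 4). The share was higher in every library with inhibitor than in any of the matched group without it.

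Single genes moved by modest amounts, and few exceeded the 1.5-fold limit. DKC1, WDR75, LYAR and POLR1E were called with Senexin B alone, where 2.02% of all genes were called higher and 1.77% lower (3.79% in all). IMP4 was called with Senexin B and R1881 (background 1.61% and 1.5%, 3.12% in all). WDR75 and IMP4 were called with SNX631 alone (2.82% and 1.94%, 4.77% in all) and with SNX631 and R1881 (1.89% and 2.24%, 4.12% in all). Of the 45 genes, 25 passed as higher in all 4 inhibitor comparisons, against 5.08% of the 15681 genes tested in both experiments and 9.04% of those at least as abundant as PPAN. Several of the 25, such as LYAR, DKC1, DDX18 and POLR1A, lost a call when 1 library was left out, as given below. The inhibitor comparisons share no libraries with each other, whereas each shares libraries with the R1881 comparisons of its experiment. In 43 of 45 genes the log2 fold change was above 0 in all 4 (26.9% of all genes), the exceptions being GNL3, a nucleolar GTP-binding protein, and UBTF. All libraries with Senexin B alone lay above all vehicle libraries in 44 genes (23.7% of all genes), and the corresponding count was 37 with R1881 (22.8%), 38 for SNX631 alone (18%) and 42 for SNX631 with R1881 (21.2%).

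**Figure D2:**
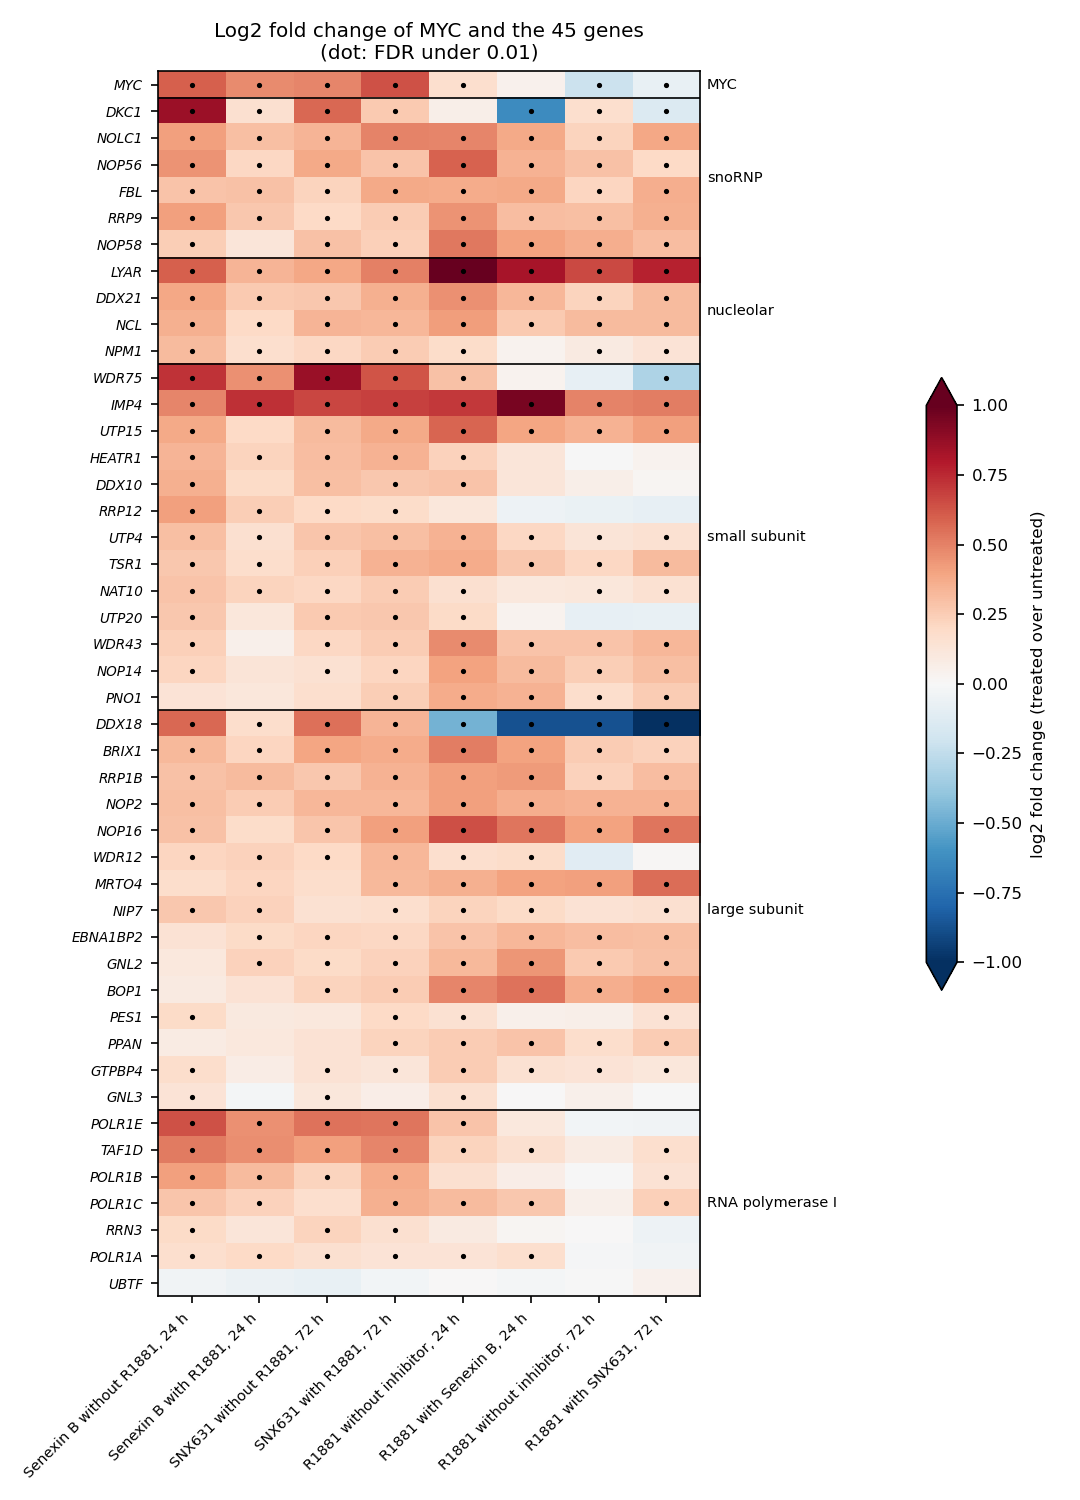
Log2 fold change (treated over untreated, colour scale cut at -1 and 1) of MYC and the 45 genes, ordered by role, in the 4 inhibitor and the 4 R1881 comparisons, with a dot where the edgeR FDR was under 0.01. The inhibitor columns are red almost throughout, and DDX18 is red in these and blue in the 4 R1881 columns.

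MYC itself rose with either inhibitor. Its levels were 252, 253 and 257 CPM with vehicle at 24 h, 369, 399 and 387 CPM with Senexin B, 278, 295 and 284 CPM with R1881, and 397, 396 and 396 CPM with both. At 72 h they were 264, 250, 258 and 258 CPM with vehicle, 347, 368, 361 and 376 CPM with SNX631, 228, 221, 216 and 225 CPM with R1881, and 356, 342, 350 and 343 CPM with both. Groups with inhibitor did not overlap the matched groups without it. The log2 fold change was 0.60 ± 0.03 (SE) with Senexin B alone (FDR 1.53e-15), 0.47 ± 0.03 with Senexin B and R1881 (FDR 1.15e-12), 0.49 ± 0.03 with SNX631 alone (FDR 6.44e-18) and 0.63 ± 0.03 with SNX631 and R1881 (FDR 6.75e-21). Of the 45 genes, 4, 1, 5 and 1 rose by more than MYC in these comparisons.

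With R1881, MYC did not follow the median of the pathway. MYC rose by 0.17 ± 0.03 on the log2 scale with R1881 at 24 h (FDR 7.54e-05) and changed by -0.22 ± 0.03 at 72 h (FDR 1.16e-08), while the median of the 45 genes was 0.32 and 0.17. With library totals in place of the main scaling, MYC at 24 h was 0.09 and no longer passed. In the presence of inhibitor, the MYC values with R1881 were 0.04 (FDR 0.305) with Senexin B and -0.08 (FDR 0.00895) with SNX631, the latter losing its call when any 1 of 11 of the 16 libraries was left out. The pathway's median in these comparisons was 0.27 and 0.23. In the MYC network, MXD4, a repressor that pairs with MAX, fell with inhibitor by 0.40, 0.35, 0.34 and 0.36 on the log2 scale. MXI1, another such repressor, rose by 0.28, 0.22, 0.13 and 0.19. MXD1, also of the network, had lower means with inhibitor: 27.87 against 32.55 CPM, 33.89 against 37.75, 28.77 against 30.98 and 32.43 against 35.85. The means of MXD3 and MNT were higher with inhibitor except for Senexin B with R1881, where they were slightly lower. MAX, the shared partner, had values of 0.11, 0.05, 0.05 and 0.17, of which only the last passed. MYCL, at low levels, had lower means with inhibitor: 5.38 against 6.18 CPM, 4.37 against 7.66, 6.48 against 7.85 and 7.45 against 9.36. Its log2 fold change with Senexin B and R1881 was -0.82, the lowest of the 10 network genes tested, and was called (1.5% of all genes were called lower).

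**Figure D3:**
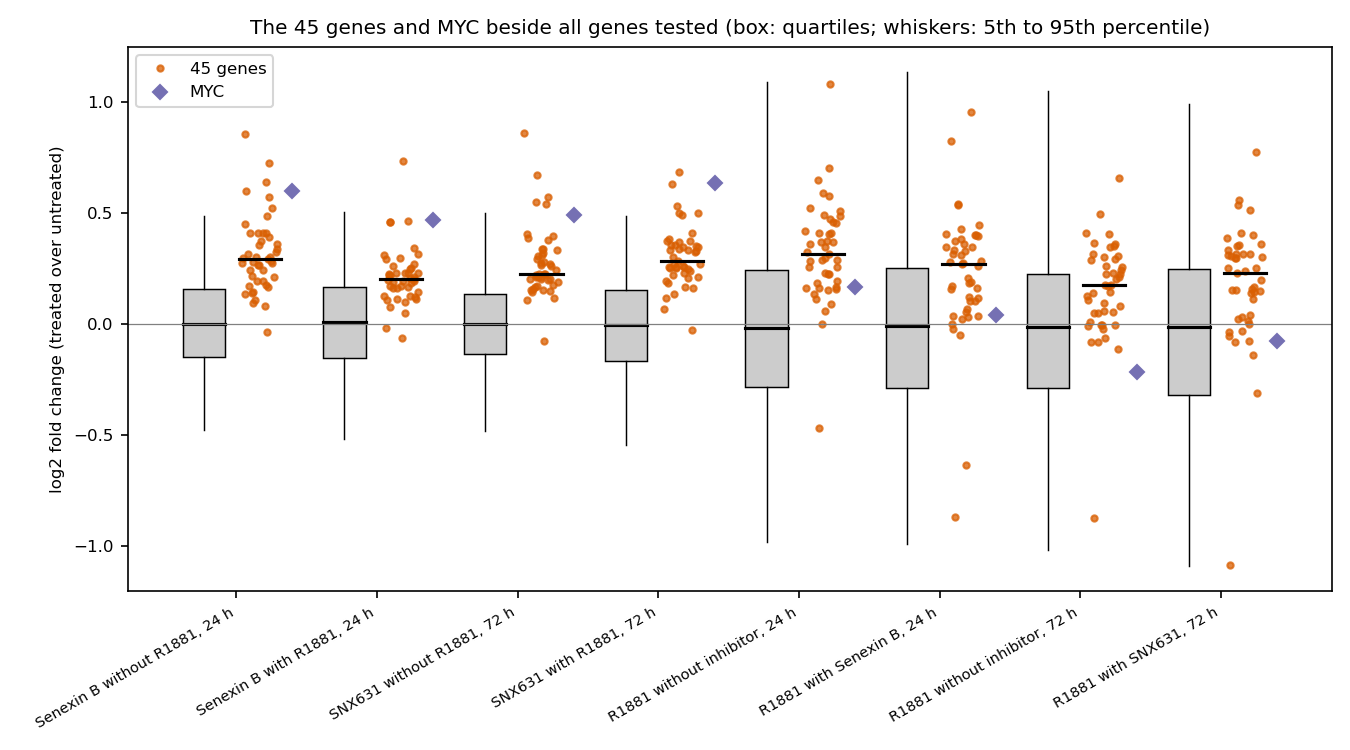
Log2 fold change (treated over untreated) in each comparison: grey boxes give the quartiles and whiskers the 5th to 95th percentile of all genes tested, points the 45 genes with their median as a bar, and diamonds MYC. MYC lies above nearly all members in the inhibitor comparisons and below their median in the R1881 comparisons.

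R1881 alone raised 39 of the 45 genes at 24 h and lowered 1, DDX18, with a median rise of 24.6%. This is to be read against 26.3% of all genes higher and 22.1% lower, or 37.9% and 22.3% among genes at least as abundant as PPAN. LYAR, IMP4, NOP16 and NOP56 were called, all higher, where 9.81% of all genes were called higher and 9.19% lower. At 72 h, R1881 raised 28 and lowered 1 (median rise 12.9%, background 27.6% higher and 24.6% lower, and 41.1% and 23% among the abundant genes), and LYAR and DDX18 were called in opposite directions (background 9.7% higher and 10.1% lower). With Senexin B it raised 30 and lowered 2 (background 26.3% and 21.2%), with IMP4 and LYAR called higher and DKC1 and DDX18 lower (background 9.97% and 8.9%). With SNX631 it raised 32 and lowered 3, DKC1, WDR75 and DDX18 (background 29.8% and 27.5%), with LYAR called higher and DDX18 lower (background 10.1% and 12%). The counts depended on the scaling, those at 72 h the most. With library totals only, R1881 alone raised 30 and lowered 1 of the genes at 24 h (median log2 fold change 0.24). With Senexin B it then raised 24 and lowered 2 (median 0.19). At 72 h with that scaling, R1881 raised 20 and lowered 6 alone (median 0.07), and raised 21 and lowered 9 with SNX631. That scaling moved the median of all genes by -0.10 and -0.11 in the 72 h comparisons, and the members' median stayed above it by 0.19 and 0.24.

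The log2 fold change with R1881 was lower at 72 h than at 24 h in 42 of the 45 genes (8326 of 16672 genes tested were higher at 72 h), and 10 passed as lower in the test of that difference (background 3.96% lower and 3.58% higher), with 0 higher. These were NOP56, NOLC1, DDX21, LYAR, UTP4, WDR75, HEATR1, WDR12, DDX18 and POLR1E. In DDX18 the lower value was a larger fall, and in WDR75, HEATR1, WDR12 and POLR1E a rise at 24 h gave way to values at 72 h that did not pass. The count was 6 when replicate 3 of the 24 h R1881 group or replicate 1 of the 72 h R1881 group was left out, and 17 with library totals. Time, R1881 dose and experiment cannot be told apart in this difference.

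The snoRNP genes encode the core of the modifying particles: FBL is the methyltransferase and NOP56 and NOP58 the scaffold of the box C/D class, DKC1 the pseudouridine synthase of the box H/ACA class, RRP9 a component of the U3 particle and NOLC1 a chaperone of both classes. All 6 rose with Senexin B alone and with SNX631 in either condition, and 5 of 6 with Senexin B and R1881. The inhibitor counts by role, here and below, are to be read against all genes. Of these, 13.5% were higher with Senexin B alone, 12.7% with Senexin B and R1881, 14.4% with SNX631 alone and 17.8% with SNX631 and R1881. Among genes at least as abundant as PPAN the shares were 21%, 20.6%, 21.6% and 27.3%. NOP56 was 152, 160 and 161 CPM with vehicle at 24 h, 215, 224 and 210 CPM with Senexin B, 237, 237 and 240 CPM with R1881, and 278, 276 and 271 CPM with both. Each treatment group lay above vehicle without overlap, and the group with both lay above either alone. FBL rose by a similar 0.28, 0.29, 0.23 and 0.38 on the log2 scale in the 4 inhibitor comparisons.

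DKC1 (X:154762742-154777689, plus strand, GRCh38) departed from this pattern, with a rise under inhibitor that was mostly lost when R1881 was present. Its levels at 24 h were 166, 177 and 172 CPM with vehicle, 308, 309 and 318 CPM with Senexin B, 180, 183 and 175 CPM with R1881, and 205, 206 and 193 CPM with both. The Senexin B libraries were the highest of the experiment and overlapped no other group. At 72 h they were 137, 145, 139 and 143 CPM with vehicle, 215, 215, 210 and 202 CPM with SNX631, 159, 156, 161 and 161 CPM with R1881, and 187, 196, 194 and 193 CPM with both. The log2 fold change with Senexin B was 0.86 ± 0.03 alone (FDR 5.24e-19) and 0.16 ± 0.04 with R1881 (FDR 0.000834), and the interaction was -0.69 ± 0.05 (FDR 3.1e-11). The 0.16 value was 0.14 and no longer passed without replicate 3 of the 24 h R1881 group. With SNX631 it was 0.57 ± 0.03 alone and 0.26 ± 0.03 with R1881, and the interaction was -0.31 ± 0.04 (FDR 3.85e-07). DKC1 holds 2 snoRNA genes in its span, and 72.8% of its summed count lay in fractional values, whose origin was not tested. Such a share takes each value that is not whole with its full count, so it does not measure the reads that were split.

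The nucleolar group holds the most abundant members. Per kilobase of exon, NPM1, the histone chaperone nucleophosmin, had a mean of 332 CPM, NCL, which encodes nucleolin, 144 CPM, and WDR75, the median member by this measure, 18.1 CPM. All 4 genes of the group passed as higher in every inhibitor comparison. LYAR lost its call with Senexin B and R1881 without replicate 3 of the 24 h R1881 group (0.26 on the log2 scale). NCL was 739, 779 and 748 CPM with vehicle at 24 h, 945, 981 and 977 CPM with Senexin B, 1008, 1007 and 1014 CPM with R1881, and 1138, 1193 and 1154 CPM with both, with no overlap between these groups. NPM1 rose by 0.31, 0.17, 0.20 and 0.25 on the log2 scale in the inhibitor comparisons. With R1881 alone it was 0.18 at 24 h and 0.09 at 72 h, and the 72 h value turned to -0.01 with library totals.

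LYAR (chr4:4267701-4290169, minus strand), a nucleolar zinc-finger protein that acts in pre-rRNA processing, had the largest rise of the 45 genes under R1881 alone at both times. It was 11.3, 14.9 and 13.5 CPM with vehicle at 24 h, 21, 20.3 and 19.8 CPM with Senexin B, 32.4, 27.7 and 25.2 CPM with R1881, and 35.8, 37 and 35.6 CPM with both. At 72 h it was 17.4, 18.6, 19.9 and 19 CPM with vehicle, 24.6, 25.4, 24.3 and 24 CPM with SNX631, 28.2, 28.4, 30.7 and 31.4 CPM with R1881, and 41.9, 41.6, 43.2 and 42.9 CPM with both. The 4 groups of each experiment did not overlap and stood in the same order in both. The log2 fold change with R1881 was 1.08 ± 0.08 at 24 h (FDR 8.78e-13) and 0.66 ± 0.06 at 72 h (FDR 1.97e-12), and that with inhibitor alone 0.60 ± 0.09 for Senexin B (FDR 2.33e-06) and 0.39 ± 0.06 for SNX631 (FDR 2.05e-06). The interactions did not pass (-0.25, FDR 0.252, and 0.12, FDR 0.391), with 95% intervals of -0.48 to -0.03 and -0.04 to 0.27.

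**Figure D4:**
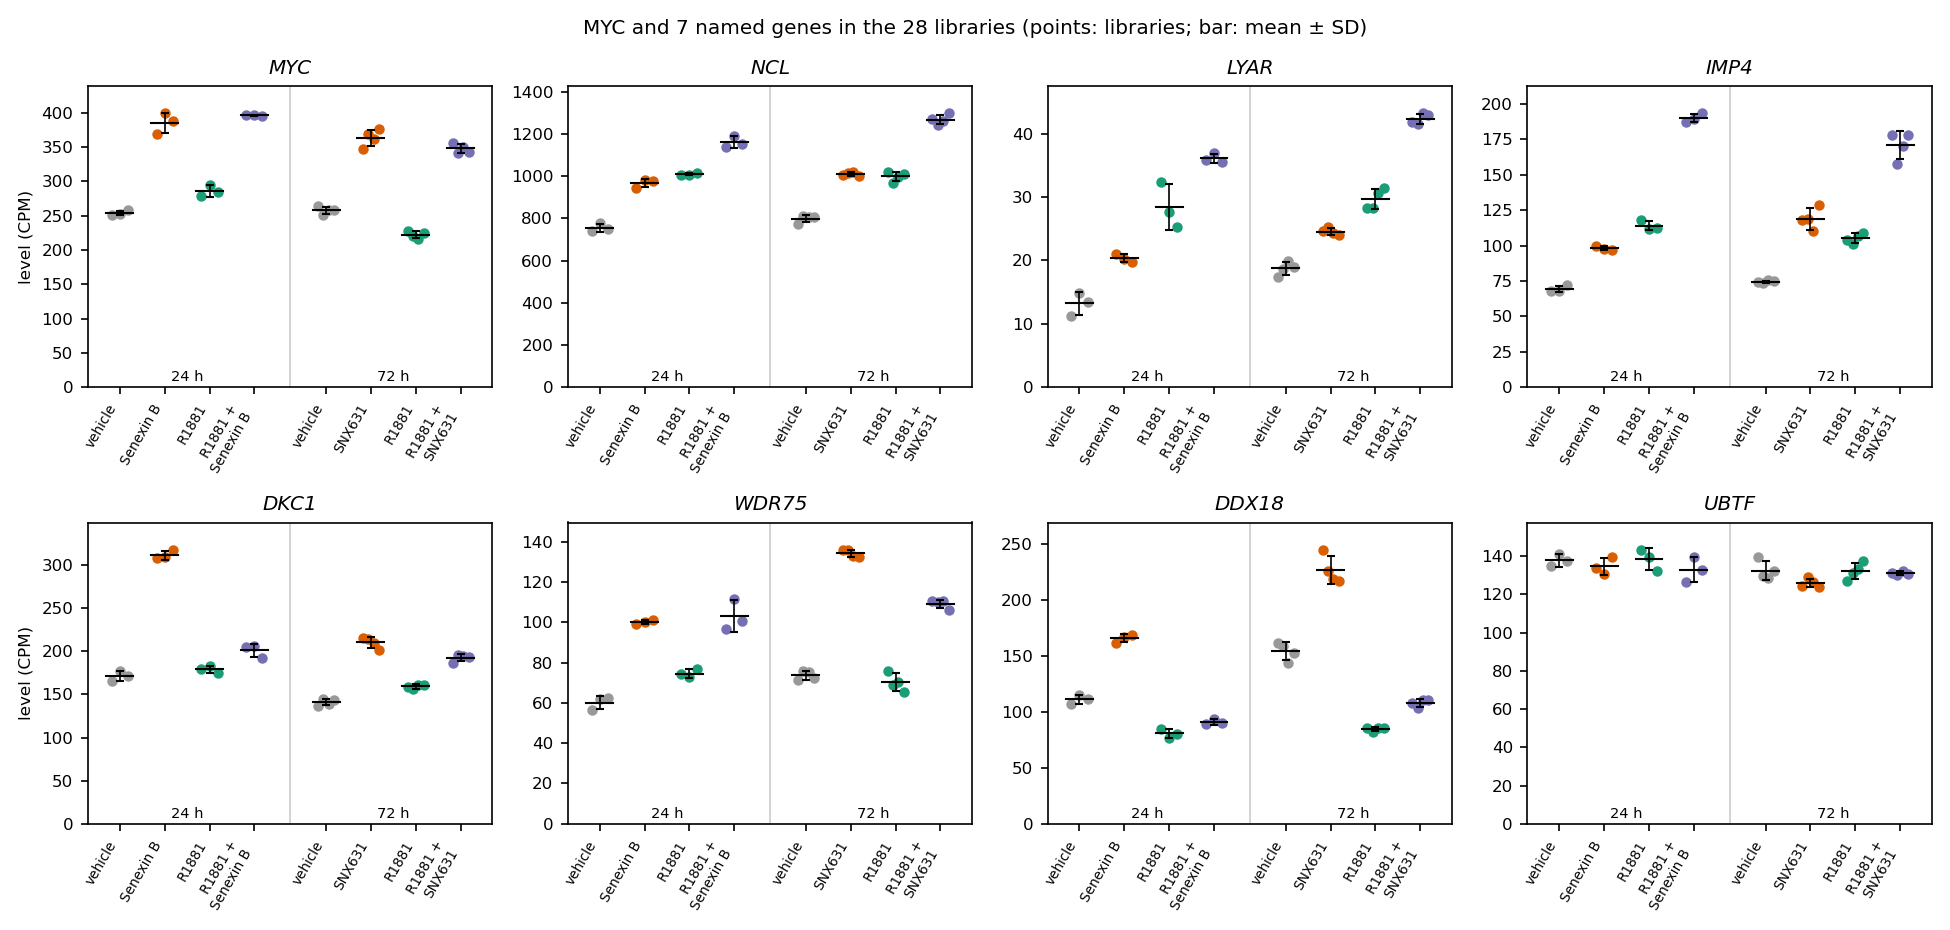
Level (CPM, axis from 0) of MYC and 7 of the 45 genes in each of the 28 libraries by group, with mean ± SD; 3 libraries per group at 24 h and 4 at 72 h. LYAR and IMP4 are highest with R1881 and inhibitor together, DKC1 and DDX18 with inhibitor alone, and UBTF lies between 124 and 143 CPM in every library.

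Among the small-subunit processing genes, 12 of 13 rose with Senexin B alone, 7 with Senexin B and R1881, 12 with SNX631 alone and 13 with SNX631 and R1881. WDR43, a component of the early processing machinery, had inhibitor values of 0.24, 0.05, 0.21 and 0.26, of which the second did not pass, and UTP20 had 0.27, 0.11, 0.26 and 0.27, with the same exception. The largest changes belonged to IMP4 (chr2:130342225-130347810, plus strand), a component of the U3 snoRNP processing complex, and WDR75 (chr2:189441433-189475565, plus strand), a subunit of the complex that joins the nascent precursor during its transcription. IMP4 was 68.2, 67.9 and 72.1 CPM with vehicle at 24 h, 99.7, 97.7 and 96.9 CPM with Senexin B, 118, 112 and 113 CPM with R1881, and 187, 189 and 193 CPM with both. At 72 h it was 74.1, 73.6, 75.4 and 74.7 CPM with vehicle, 118, 119, 110 and 129 CPM with SNX631, 104, 101, 107 and 109 CPM with R1881, and 178, 158, 170 and 178 CPM with both. Both treatments together gave the highest libraries of each experiment. The log2 fold change was 0.49 ± 0.04 with Senexin B alone, 0.73 ± 0.04 with Senexin B and R1881, 0.67 ± 0.04 with SNX631 alone and 0.69 ± 0.04 with SNX631 and R1881 (the largest FDR was 3.44e-11). IMP4 overlaps CCDC115 on the opposite strand, and the use of strand in counting is not given in the sources used here.

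WDR75 rose with inhibitor in all 4 comparisons, and with R1881 it rose at 24 h alone (0.30 on the log2 scale) and fell by 0.31 in the presence of SNX631. It was 56.3, 61.7 and 62.2 CPM with vehicle at 24 h, 99.3, 100 and 101 CPM with Senexin B, 74.2, 72.6 and 76.9 CPM with R1881, and 96.6, 112 and 101 CPM with both. At 72 h it was 71.4, 75.8, 75.3 and 72.3 CPM with vehicle, 136, 136, 133 and 132 CPM with SNX631, 76.1, 69.1, 70.4 and 65.4 CPM with R1881, and 110, 110, 110 and 106 CPM with both. The groups with inhibitor lay above those without it in each experiment. The log2 fold change was 0.72 ± 0.05 with Senexin B alone (FDR 1.45e-13) and 0.86 ± 0.03 with SNX631 alone (FDR 1.43e-21), the largest of the 45 genes in the latter comparison. With R1881 present these were 0.46 ± 0.05 and 0.63 ± 0.04, and the interaction passed at 72 h (-0.23 ± 0.05, FDR 0.00138) and not at 24 h (-0.26 ± 0.07, FDR 0.0214). RRP12, an export and processing factor, rose by 0.41, 0.25, 0.20 and 0.19 with inhibitor, the last losing its call without replicate 1 or 3 of R1881 or 2 of the group with both (0.15 to 0.16), and had R1881 values of 0.11, -0.06, -0.05 and -0.08, of which none passed.

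In the large-subunit group, 10 of 15 genes rose with Senexin B alone, 9 with Senexin B and R1881, 11 with SNX631 alone and 14 with SNX631 and R1881. The genes of the PeBoW complex, which is needed for maturation of the large-subunit rRNAs, are BOP1, WDR12 and PES1. BOP1 was raised by R1881 in all 4 comparisons, by 0.49, 0.37, 0.54 and 0.40 on the log2 scale (24 h alone, 72 h alone, with Senexin B, with SNX631), and its inhibitor values were 0.09 and 0.14 with Senexin B, which did not pass, and 0.22 and 0.26 with SNX631, which did (alone and with R1881 in each case). WDR12 passed as higher with inhibitor in all 4 comparisons (0.21, 0.23, 0.20 and 0.33), the value for Senexin B with R1881 losing its call without replicate 2 of either R1881 group at 24 h (0.16 to 0.20), and PES1 in 2 of 4 (0.20 with Senexin B alone and 0.20 with SNX631 and R1881). MRTO4, a factor of large-subunit assembly, was raised by R1881 in all 4 comparisons (0.36, 0.41, 0.40 and 0.56) and had inhibitor values of 0.17, 0.21, 0.17 and 0.32, of which the first and the third did not pass and the second lost its call without replicate 1 or 3 of either R1881 group (0.19 to 0.21). GTPBP4, a GTP-binding assembly factor, had inhibitor values of 0.18, 0.08, 0.15 and 0.12, of which the second did not pass and the last lost its call without replicate 2 of R1881 or 1 of the group with both (0.10 to 0.11). PPAN, whose reads cannot be told from those of an overlapping transcript, had 0.08, 0.11, 0.15 and 0.22, and only the last passed. NOP16, a protein of the pre-60S particle, rose with R1881 by 0.65 ± 0.06 at 24 h (FDR 2.95e-11) and by 0.40 ± 0.05 at 72 h (FDR 9.92e-09).

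DDX18 (chr2:117814650-117832379, plus strand), a DEAD-box RNA helicase of large-subunit assembly, was the one member that R1881 lowered in all 4 comparisons. It was 107, 115 and 112 CPM with vehicle at 24 h, 162, 167 and 169 CPM with Senexin B, 85, 76.5 and 80.4 CPM with R1881, and 89, 94 and 90.2 CPM with both. At 72 h it was 161, 159, 144 and 153 CPM with vehicle, 245, 226, 219 and 217 CPM with SNX631, 85.8, 81.9, 85.8 and 85.6 CPM with R1881, and 108, 103, 110 and 110 CPM with both. Within each experiment no 2 groups overlapped, and inhibitor alone gave the highest and R1881 alone the lowest levels. R1881 changed it by -0.47 ± 0.04 at 24 h (FDR 3.37e-11) and -0.87 ± 0.04 at 72 h (FDR 3.67e-21), and with inhibitor present by -0.87 ± 0.04 with Senexin B (FDR 2.33e-18) and -1.08 ± 0.04 with SNX631 (FDR 7.16e-26). Inhibitor alone raised it by 0.57 ± 0.04 with Senexin B (FDR 2.14e-13) and 0.55 ± 0.03 with SNX631 (FDR 5.3e-16). With R1881 the rise was 0.17 ± 0.05 with Senexin B (FDR 0.00387) and 0.34 ± 0.04 with SNX631 (FDR 1.13e-08), and the interaction was -0.40 ± 0.06 at 24 h (FDR 3.48e-05). The 0.17 value no longer passed without replicate 2 or 3 of either R1881 group at 24 h, where it was 0.13 to 0.18. Of the summed count of DDX18, 22.9% lay in fractional values.

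Most RNA polymerase I genes rose with inhibitor. Of these genes, 6 of 7 rose with Senexin B alone, 5 with Senexin B and R1881, 5 with SNX631 alone and 6 with SNX631 and R1881. The shares of all genes higher in these comparisons were 13.5%, 12.7%, 14.4% and 17.8% (21%, 20.6%, 21.6% and 27.3% of those at least as abundant as PPAN). With R1881 alone, 4 of 7 rose at 24 h and 0 of 7 at 72 h, against 26.3% and 27.6% of all genes higher (37.9% and 41.1% of those at least as abundant as PPAN). At 72 h their log2 fold changes ran from -0.02 to 0.08. POLR1E (chr9:37485935-37503697, plus strand), a subunit known as PAF53 that binds initiation factors, was 46.3, 48.9 and 47.4 CPM with vehicle at 24 h, 69.5, 82.8 and 70.9 CPM with Senexin B, 55.5, 58.7 and 59.7 CPM with R1881, and 79.9, 79 and 80.8 CPM with both. The Senexin B libraries lay above all those without it. POLR1E rose with inhibitor by 0.64 ± 0.05, 0.46 ± 0.05, 0.54 ± 0.05 and 0.53 ± 0.05, and TAF1D, a subunit of the promoter selectivity factor SL1, by 0.52 ± 0.05, 0.46 ± 0.05, 0.41 ± 0.04 and 0.49 ± 0.04, in the order Senexin B alone, with R1881, SNX631 alone, with R1881. TAF1D holds 8 snoRNA genes in its span, and 79.5% of its summed count lay in fractional values.

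Of the catalytic core, POLR1B rose by 0.41, 0.32, 0.22 and 0.37 in the inhibitor comparisons and POLR1A by 0.17, 0.20, 0.16 and 0.13. The POLR1A call was lost without replicate 3 of vehicle or 1 of Senexin B for Senexin B alone (0.14 to 0.16), without replicate 3 of SNX631 for SNX631 alone (0.13), and without replicate 1 or 3 of R1881 or 2 or 3 of the group with both for SNX631 with R1881 (0.086 to 0.14). POLR1C, a subunit shared with RNA polymerase III, was 0.28, 0.23, 0.17 and 0.35, of which the third did not pass, and the second lost its call without replicate 1 of R1881 or 2 of the group with both (0.19 to 0.21). RRN3, the factor that makes the polymerase competent to initiate, rose by 0.19 with Senexin B alone, 0.22 with SNX631 alone and 0.16 with SNX631 and R1881, and was 0.12 with Senexin B and R1881, which did not pass. Its call was lost without replicate 1 of Senexin B for Senexin B alone (0.15), and without replicate 4 of R1881 or 1 of the group with both for SNX631 with R1881 (0.13 to 0.14). UBTF, which binds along the ribosomal DNA, passed in none of the 8 treatment comparisons. It was 135, 141 and 138 CPM with vehicle at 24 h, 134, 131 and 139 CPM with Senexin B, 143, 140 and 132 CPM with R1881, and 127, 140 and 133 CPM with both, and these groups overlapped. Its log2 fold change with inhibitor was -0.04, -0.06, -0.07 and -0.03, in the same order as above. The 95% intervals ran from -0.11 to 0.04 and from -0.14 to 0.02 with Senexin B, alone and with R1881, and from -0.13 to -0.01 and from -0.09 to 0.03 with SNX631. With library totals, the value for SNX631 alone was -0.10 and passed.

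Senexin B and SNX631, which were used at different doses and times, are set side by side here over the pathway. Without R1881, all 45 genes had the same sign with both inhibitors (76.5% of all genes), and with R1881, 44 of 45 did (74.9%). Across the 45 genes, which are not independent replicates, Pearson's r between the log2 fold changes was 0.84 without R1881 and 0.85 with it, where it was 0.65 and 0.61 across all 15681 genes. The rise was larger with SNX631 than with Senexin B in 12 of 45 genes without R1881 and in 39 of 45 with it. The interaction of R1881 and inhibitor had a median of -0.10 over the genes at 24 h, below 0 in 35 of 45, and of 0.04 at 72 h, below 0 in 15 of 45. Only 4 genes passed the interaction test at 24 h and 4 at 72 h (background 1.08% higher and 1.02% lower at 24 h, 2.99% and 4.1% at 72 h), and DKC1 and DDX18 were lower in both, with the DDX18 call at 72 h lost without any 1 of 7 of the 16 libraries.

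**Figure D5:**
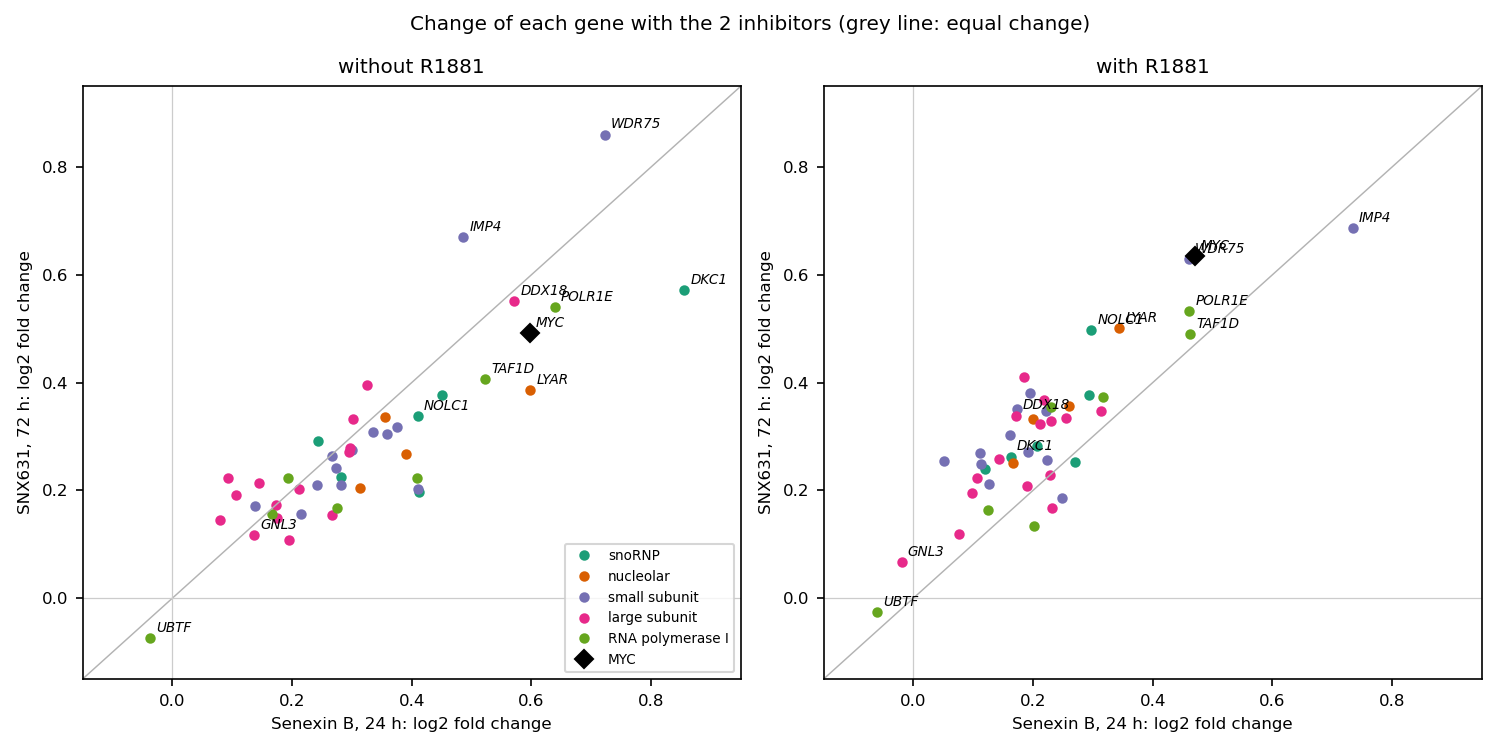
Log2 fold change with Senexin B (24 h, x axis) and with SNX631 (72 h, y axis) of the 45 genes, coloured by role, and of MYC, without R1881 (left) and with R1881 (right), with the line of equal change. All points but UBTF lie above 0 on both axes on the left; GNL3 and UBTF lie left of 0 on the right.

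Other lists are set beside the same shares of all genes (13.5%, 12.7%, 14.4% and 17.8% higher with inhibitor, or 21%, 20.6%, 21.6% and 27.3% of the abundant genes). With R1881 alone, 26.3% of all genes were higher at 24 h and 27.6% at 72 h, or 37.9% and 41.1% of the abundant genes. Of 87 other ribosome biogenesis genes, 43, 26, 51 and 51 rose in the inhibitor comparisons (same order) and 0, 1, 0 and 0 fell, and 48 rose with R1881 at 24 h and 42 at 72 h, with 6 and 10 lower. Of the 84 cytosolic ribosomal protein genes tested, 74, 37, 39 and 67 rose with inhibitor, with medians of 0.18, 0.11, 0.08 and 0.12 on the log2 scale, and 0, 0, 1 and 1 fell, while R1881 alone raised 3 at 24 h and 9 at 72 h and lowered 2 and 11. Of 78 mitochondrial ribosomal protein genes, 21, 21, 17 and 36 rose with inhibitor and 5, 3, 3 and 2 fell, and R1881 alone raised 30 at 24 h and 32 at 72 h and lowered 4 and 6. Of 12 MYC target genes outside the ribosome, such as ODC1 and CAD, 9, 8, 10 and 9 rose with inhibitor and 1, 0, 0 and 0 fell, and R1881 raised 11 at 24 h and 10 at 72 h. Proliferation genes moved in the same comparisons. Of 15, R1881 alone raised 15 at either time, with medians of 2.25 and 1.52, and inhibitor raised 10, 6, 15 and 15, with medians of 0.41, 0.13, 0.92 and 0.53. Their part in the changes of the 45 genes was not tested.

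The median log2 fold change of the 13 genes with the motif was 0.27 with Senexin B alone, 0.21 with Senexin B and R1881, 0.21 with SNX631 alone and 0.26 with SNX631 and R1881, and that of the 22 without it 0.32, 0.20, 0.25 and 0.33. With R1881 alone, the medians were 0.37 with and 0.26 without the motif at 24 h, and 0.26 and 0.12 at 72 h. The ranges overlapped in every comparison, and these medians are given as a description.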

How the data were processed

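Total RNA of 28 LNCaP libraries was sequenced with a directional kit per the labels. As deposited by the authors, a single table holds expected counts for each gene, unscaled for depth, and 16.9% of its nonzero values were not whole. The submitters' processing notes name FastQC, cutadapt 2.8, STAR 2.7.2b, featureCounts (Subread 2.0.3) and the builds GRCh38.p13 and GRCm39, with no role. The use of strand is not given in the sources used here. Fractions were rounded, and 2 added rows that are not human genes, at 0 in every library, were left out.

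Each experiment was fitted alone in R 4.3.3 with edgeR 4.0.16 (TMM, filterByExpr set to min.count 10 and min.total.count 15, quasi-likelihood test, Benjamini-Hochberg adjustment over 15948 genes at 24 h and 16074 at 72 h), and the R1881 effects of the experiments were compared in a fit of all 28 libraries. The SE was computed from the same fits, as the absolute log2 fold change over the square root of the F statistic of the quasi-likelihood test. The 95% intervals take a normal distribution, so they can be narrower than the test implies. CPM came from TMM scaling of all 28 libraries, except for the cell type markers, whose CPM used library totals alone. The limits (FDR under 0.01, fold over 1.5) are those of the study. A log2 fold change had an SE of about 0.03 for an abundant member. The study's methods call its RNA-seq replicates biological, and the labels do not say how the cultures were separated; p-values measure the spread between these replicates. Among 36 replicate pairs, none was within sampling noise.

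The members, lists and tests were chosen with earlier results of these data known. Named were MYC, every member called in any treatment or interaction comparison, the 3 highest and 3 lowest members of each treatment comparison, the 7 RNA polymerase I genes, and NCL, NPM1 and FBL; other genes appear for their role and were chosen after their values were seen. Positions are those of GENCODE 29. In 23 of 45 members over 5% of the summed count lay in fractional values, each taken with its full count, which does not measure the reads that were split. With the fractions kept, all 33 counts of members and all 192 results for single genes stayed the same. Of the members, 10 hold snoRNA genes on their strand, 26 overlap a gene on the other strand, and PPAN shares exons with PPAN-P2RY11, so these levels are uncertain. Alternatives were other scalings, DESeq2 1.42.0, other filters and limits, other sets of libraries, thinning, a replicate block and leaving out each library; removing the trend on GC content and length was chosen after seeing the data. Scripts were tested on simulated data. Figures were drawn with matplotlib 3.10.9.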

Additional observations from a re-analysis of the deposited data

Results flagged for a closer look

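In 116 groups of 4 values that were tested, 7 held a library far from the others, where chance gives about 1 in 20. These were DDX18 in replicate 2 of the 72 h R1881 group (81.9 CPM, the others 85.6 to 85.8), RRN3 in replicate 4 of that group (76.5 CPM, the others 83.2 to 83.9) and NCL in replicate 1 of the 72 h vehicle group (774 CPM, the others 806 to 810). In the group with R1881 and SNX631 they were WDR75 in replicate 4 (106 CPM, the others 110), POLR1E in replicate 1 (68.7 CPM, the others 62.7 to 63.7), RRP12 in replicate 2 (70.3 CPM, the others 62.7 to 63.6) and TAF1D in replicate 1 (83.6 CPM, the others 91.3 to 92.3).

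The effect of Senexin B differed between cells without and with R1881 by the interaction test (log2 scale, edgeR) in DKC1 (-0.69, FDR 3.1e-11), DDX18 (-0.40, FDR 3.48e-05), NOP56 (-0.24, FDR 0.00134) and IMP4 (0.25, FDR 0.00519). The IMP4 call was lost without any 1 of 10 of the 12 libraries, with values from 0.21 to 0.25, and was kept only without replicate 1 of the Senexin B or of the R1881 group. The effect of SNX631 differed in DKC1 (-0.31, FDR 3.85e-07), NOLC1 (0.16, FDR 0.000866), WDR75 (-0.23, FDR 0.00138), DDX18 (-0.21, FDR 0.00533) and MYC (0.14, FDR 0.00825). The DDX18 call was lost without any 1 of 7 of the 16 libraries (-0.21 to -0.17) and the MYC call without any 1 of 9 (0.12 to 0.14).

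The R1881 effect without inhibitor differed between 72 h and 24 h in MYC (-0.38, FDR 2.53e-09) and in 10 members: NOP56 (-0.29, FDR 1.77e-06), NOLC1 (-0.26, FDR 1.82e-06), DDX21 (-0.23, FDR 3.14e-06), DDX18 (-0.40, FDR 3.98e-06), WDR75 (-0.37, FDR 2.86e-05), LYAR (-0.42, FDR 0.00267), HEATR1 (-0.23, FDR 0.00375), WDR12 (-0.27, FDR 0.00568), POLR1E (-0.30, FDR 0.00745) and UTP4 (-0.22, FDR 0.00841). In this difference the POLR1E call was lost without any 1 of 9 of the 28 libraries (-0.31 to -0.28), the WDR12 call without any 1 of 5 (-0.27 to -0.22), and the LYAR call without replicate 1 or 3 of vehicle or 1 of R1881 at 24 h (-0.43 to -0.32).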

How the results depend on the processing

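Leaving out 1 library gave 36 to 39, 24 to 30, 37 to 39 and 41 to 43 members higher (Senexin B alone, with R1881, SNX631 alone, with R1881) and 0 lower in each. R1881 raised 36 to 40 at 24 h, 24 to 28 at 72 h, 25 to 31 with Senexin B and 30 to 32 with SNX631. The 24 h interaction gave 0 to 1 higher and 3 to 5 lower, the 72 h interaction 1 to 2 higher and 2 to 3 lower, and the difference between times 6 to 12 lower. With library totals only, R1881 called 2 members at 24 h, lowered 6 and called 1 at 72 h, raised 21 and lowered 9 with SNX631, the difference had 17 lower, SNX631 alone lowered 1, and DKC1 (R1881 at 24 h) turned to -0.018, NPM1 (R1881 at 72 h) to -0.0090, and MYC and WDR75 (R1881 with Senexin B) to -0.035 and -0.041. WDR75 in that comparison ran from -0.024, without replicate 2 of the group with both, to 0.071, without its replicate 1. With the trend on GC content and length removed, MYC (R1881 with Senexin B) was -0.020, GNL3 (Senexin B with R1881) 0.00082, UBTF (SNX631 with R1881) 0.0034, and the 72 h interaction had 2 higher. The 23 members with over 5% of their summed count in fractional values were also left out. Of the 22 left, R1881 raised 20, 12, 14 and 15 (24 h, 72 h, with Senexin B, with SNX631) and lowered 0, 0, 0 and 1. It called 1 at 72 h, 2 with Senexin B and 1 with SNX631, and inhibitor raised 19, 13, 18 and 22. The 24 h interaction then had 0 lower and 0 called, the 72 h interaction 0 higher and 1 lower, and the difference 5 lower, all over fewer genes. At an FDR limit of 0.05, R1881 lowered 2 at 72 h (also 2 with a minimum count of 50), the 24 h interaction had 6 lower, the 72 h interaction 2 higher and the difference 19 lower. The 24 h interaction had 0 higher with DESeq2 and with thinning and 5 lower with all 28 libraries in 1 fit, and the 72 h interaction 2 higher with no filter. Replicate numbers did not pair the libraries (correlations of same-numbered libraries from -0.05 to 0.15 at 24 h, 1 of 18 over 0.1, and -0.05 to 0.06 at 72 h); with a replicate block the 24 h interaction had 5 lower, and the other counts moved by less than 1.5 times. Except where named, the cause of these changes was not tested. Apart from the ranges with 1 library left out, counts that changed by up to 1.5 times are not listed in this section. Of 4873 alternatives for single genes, 4656 kept the direction and the side of the limit, 207 lost the call and 8 turned in sign.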
